A study of Homo sapiens with 132 samples.

Results

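Tissue factor and the protease-activated receptors were followed as a group of 7 genes among the 65217 gene identifiers counted in each library. The members were found by Ensembl identifier and comprised F3, TFPI, TFPI2, F2R, F2RL1, F2RL2 and F2RL3. F3 encodes tissue factor, the membrane receptor of factor VII and the starter of blood coagulation. TFPI encodes its main inhibitor and TFPI2 a related Kunitz-type inhibitor. F2R, F2RL1, F2RL2 and F2RL3 encode the protease-activated receptors PAR1, PAR2, PAR3 and PAR4. These G protein-coupled receptors are switched on when a protease cuts their extracellular end, thrombin acting mainly on PAR1, PAR3 and PAR4, and trypsin-like proteases and the complex of tissue factor with factor VIIa on PAR2. Tissue factor and PAR2 are known from many carcinomas, where they are linked to cell migration.

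RNA was sequenced from 4 lines of human gastric cancer cells (MKN1 and Hs746T, which received all treatments, and MKN7 and NCI-N87, which received some) in 132 libraries, with 3 replicates for each of 44 groups of line, treatment and time point (4 h and 24 h). MKN1 and Hs746T cells were left untreated or received EGF (5 ng/ml), cetuximab (1 µg/ml), EGF + cetuximab, trastuzumab (5 µg/ml), afatinib (0.5 µM) or trastuzumab + afatinib. For MKN7 and NCI-N87 the treatments were trastuzumab, afatinib and the 2 together, beside untreated cells. EGF is the ligand of the EGF receptor, cetuximab an antibody against that receptor, trastuzumab an antibody against HER2, and afatinib an irreversible kinase inhibitor of the EGFR family. Drug-treated cells were compared with untreated cells, and a solvent control was not analysed here. The labels number the replicates 1 to 3 but do not say whether they are separate cultures, so that p-values measure the spread between these libraries.

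The members lie at chr1:94529225-94541800 (F3), chr2:187464230-187565760 (TFPI), chr5:76716043-76735781 (F2R), chr5:76818933-76835315 (F2RL1) and chr19:16888860-16892606 (F2RL3), in GRCh38 by the GENCODE annotation. Total counts ranged from 25832557 to 69434151 per library, so that 3 counts, taken as the floor of detection, were worth 0.0432 to 0.116 CPM (counts scaled to the library total). The epithelial markers EPCAM, CDH1, KRT8, KRT18 and KRT19 summed to 4420 CPM or more in every MKN1, MKN7 and NCI-N87 library and to 454 to 721 CPM in Hs746T. In MKN1 the sum rested on the 3 keratins. EPCAM (13.4 to 33.7 CPM) and CDH1 (0.702 to 7.01 CPM) were there near their Hs746T ranges (16.8 to 39.9 and 0.398 to 6.39 CPM). In MKN7 and NCI-N87, EPCAM was at 301 CPM or more and CDH1 at 188 CPM or more. The mesenchymal markers VIM, CDH2, ZEB1 and FN1 summed to 3076 to 5283 CPM in Hs746T, above the 102 to 2213 CPM of the other lines. VIM (175 to 1087 CPM) and ZEB1 (27.3 to 74.1 CPM) were higher in MKN1 than in MKN7 and NCI-N87 (at most 15.1 and 15.2 CPM). CDH2 was at most 1.19 CPM in these 3 lines, and FN1 overlapped between MKN1 and MKN7. Within Hs746T, the 14 libraries of replicate 1 stood apart from the 28 of replicates 2 and 3 in several members. F3 was at 71.3 to 138 CPM in replicate 1 and at 31.7 to 50.3 CPM in replicates 2 and 3. F2RL3 was at 2.82 to 4.26 CPM in replicate 1 and at 0.748 to 1.92 CPM in the others. The mesenchymal sum was also higher in replicate 1, at 4145 to 5283 against 3076 to 4062 CPM, and the sum of the endothelial markers PECAM1, CDH5, TEK, KDR and TIE1 was lower, at 84.7 to 131 against 138 to 297 CPM. The part of these markers in the Hs746T results was not tested.

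The regions in front of F3 and F2RL1, the 2 members that rose with EGF and fell with cetuximab and afatinib in MKN1 cells at 4 h, are shown from 250 bases before to 50 bases after the annotated start (RefSeq, GRCh38.p14). The F3 window lies at chr1:94541710-94542009 on the minus strand and the F2RL1 window at chr5:76818780-76819079 on the plus strand. Capitals mark matches on either strand to 4 motifs, TGANTCA (AP-1), GCGNGGGCG (EGR), GGAATG (TEAD) and GGGCGG (GC box).
F3: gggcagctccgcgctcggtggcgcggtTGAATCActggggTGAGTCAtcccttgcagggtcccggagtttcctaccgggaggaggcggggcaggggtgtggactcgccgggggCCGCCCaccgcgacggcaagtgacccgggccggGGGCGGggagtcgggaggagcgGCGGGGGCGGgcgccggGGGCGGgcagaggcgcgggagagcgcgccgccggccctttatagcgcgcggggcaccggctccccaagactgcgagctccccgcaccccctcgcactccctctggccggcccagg
F2RL1: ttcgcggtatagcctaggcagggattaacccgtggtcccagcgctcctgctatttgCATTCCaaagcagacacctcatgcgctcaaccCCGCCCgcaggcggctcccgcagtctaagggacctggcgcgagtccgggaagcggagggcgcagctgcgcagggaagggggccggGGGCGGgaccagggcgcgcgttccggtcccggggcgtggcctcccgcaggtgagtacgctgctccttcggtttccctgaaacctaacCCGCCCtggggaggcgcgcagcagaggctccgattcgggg
Counted from the first base of the window, F3 holds the AP-1 letters at bases 28 to 34 and 41 to 47 and the EGR letters at bases 169 to 177, where they overlap 1 of its GC boxes. F2RL1 holds the TEAD letters at bases 57 to 62 and 3 GC boxes, but no AP-1 or EGR match. Of 35116 promoter windows of the same length, 7.71% held the AP-1, 9.43% the EGR, 14% the TEAD and 45% the GC box letters. A match describes the sequence and does not show that a factor binds there. Windows were found for 6 of the 7 members, all but F2R.

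Only 5 of the 7 members could be measured. F3, TFPI, F2R and F2RL1 were counted in all 132 libraries and F2RL3 in 115. TFPI2 and F2RL2 were listed at 0 in every library. Both genes lie wholly inside a longer gene on the opposite strand, TFPI2 (chr7:93885396-93890991) in GNGT1 and F2RL2 (chr5:76615482-76623434) in IQGAP2. Of the 1418 protein-coding genes that lie wholly inside another gene, 94.9% were at 0 in all libraries, against 3.42% of the other 18256. Among those at 0 were genes that every cell uses, such as TUBA1B (alpha-tubulin), which was picked after its value was seen. The zeros of TFPI2 and F2RL2 are therefore not read as a lack of expression. Reads of the nested genes could have been counted in the rows of the outer genes, and the sources cannot be told apart. The GNGT1 row ranged from 12.2 to 62.6 CPM in MKN1 and from 13.1 to 32.9 CPM in MKN7, and stayed at or below 1.37 CPM in NCI-N87 and Hs746T. In MKN1 it rose from 16.3 ± 0.712 CPM (SD, n = 3) in untreated cells at 4 h to 34.3 ± 3.11 CPM at 24 h (log2FC 0.90, adjusted p = 6.78e-09). At 24 h it was lower with EGF (18.4 ± 2.36 CPM, log2FC -0.70, adjusted p = 4.85e-07) and higher with afatinib (53.3 ± 3.65 CPM, log2FC 0.55, adjusted p = 3.54e-05). The IQGAP2 row ranged from 3.26 to 7.69 CPM in MKN1 and was at most 1.98 CPM in the other lines.

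F3 differed between all 4 untreated lines at 4 h. Its level was 1013, 1027 and 770 CPM in the MKN7 libraries, 365, 365 and 313 CPM in MKN1, 179, 190 and 143 CPM in NCI-N87, and 112, 42.1 and 44.3 CPM in Hs746T. The 4 groups did not overlap, and all 6 pairs of lines passed the test, which means here an adjusted p below 0.05 in edgeR. Such differences were common. Of all tested genes at 4 h, 66.6% passed between MKN1 and MKN7, 70.8% between MKN1 and NCI-N87, 72.9% between MKN1 and Hs746T, 68.4% between MKN7 and NCI-N87, 70.3% between MKN7 and Hs746T and 72.3% between NCI-N87 and Hs746T. At 24 h the shares were 68.4%, 71.5%, 72.4%, 69.5%, 70.7% and 72.6% in the same order. MKN7 exceeded Hs746T by a log2 fold change (log2FC) of 3.92 (95% CI 3.27 to 4.57, adjusted p = 1.38e-10). At 24 h the order was the same, with a mean of 1060 CPM in MKN7, 152 in MKN1, 103 in NCI-N87 and 61.7 in Hs746T. The neighbours MKN1 and NCI-N87 did not pass then (log2FC 0.49, 95% CI -0.09 to 1.07, adjusted p = 0.119), but did when only the groups compared were fitted (adjusted p = 0.00428) or without replicate 1 (adjusted p = 0.00563). The lower neighbours, NCI-N87 and Hs746T, passed at 24 h with all libraries (log2FC 0.74, adjusted p = 0.0229), but not without replicate 2 (adjusted p = 0.206) or replicate 3 (adjusted p = 0.133).

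TFPI, the inhibitor, was highest in Hs746T, the line with the least F3. Untreated Hs746T libraries were at 8.93, 5.32 and 6.06 CPM at 4 h, above all untreated libraries of the other lines at that time (0.65 to 1.68 CPM). Its level there exceeded that of MKN7 by 2.75 on the log2 scale (MKN7 minus Hs746T log2FC -2.75, adjusted p = 2.35e-08). MKN7 and NCI-N87 did not pass (log2FC 0.08, 95% CI -0.58 to 0.75, adjusted p = 0.835). Not every comparison ran opposite to F3. MKN1 had more F3 than NCI-N87 and also more TFPI at 4 h (1.48 against 0.913 CPM, adjusted p = 0.0366, lost without replicate 1 or 3). In untreated Hs746T, replicate 1 was highest in both genes. Per kilobase of annotated exon, TFPI was at 0.578 ± 0.162 CPM and F3 at 23 ± 13.7 CPM in untreated Hs746T at 4 h, and at 0.0808 ± 0.0176 and 326 ± 50.4 CPM in MKN7 (SD, n = 3).

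F2R (PAR1) was nearly missing from NCI-N87. Untreated NCI-N87 libraries held 0.833, 0.49 and 0.663 CPM at 4 h, or 27 to 41 counts. The other lines were far above, with 36.3 to 39.9 CPM in MKN1, 20.5 to 23 CPM in MKN7 and 18 to 21 CPM in Hs746T. MKN1 exceeded NCI-N87 by a log2FC of 5.92 (95% CI 5.47 to 6.37, adjusted p = 3.1e-16). MKN7 and Hs746T did not pass at 4 h (log2FC 0.26, 95% CI -0.08 to 0.59, adjusted p = 0.166). At 24 h the order of MKN1 and MKN7 changed, F2R being lower in MKN1 (23.9 ± 3.09 against 30.4 ± 4.94 CPM, log2FC -0.48, adjusted p = 0.0116), a call lost without replicate 1 (adjusted p = 0.0581), without replicate 2 (adjusted p = 0.138) or with library-size scaling alone (adjusted p = 0.0596).

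F2RL1 (PAR2) was the receptor found at a sizeable level in all lines. At 4 h it was at 94.7, 89.6 and 89.3 CPM in untreated Hs746T, 75.3, 71.5 and 72.1 CPM in MKN7, 44.2, 49 and 44.9 CPM in NCI-N87, and 30.1, 38.2 and 57.1 CPM in MKN1. MKN1 and NCI-N87 did not pass (log2FC -0.10, 95% CI -0.44 to 0.24, adjusted p = 0.609), but did without replicate 3 (log2FC -0.36, adjusted p = 0.033). MKN7 and Hs746T did not pass either (log2FC -0.23, 95% CI -0.57 to 0.11, adjusted p = 0.213), but did when only the groups compared were fitted (adjusted p = 0.0257). Per kilobase of exon, F2RL1 was above F2R in each line at 4 h, for example at 30.8 ± 1.03 against 4.73 ± 0.383 CPM in Hs746T.

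F2RL3 (PAR4) was low. It was at 2.31, 3.14 and 3.13 CPM in untreated MKN1 at 4 h and at 3.84, 1.55 and 0.748 CPM in Hs746T. MKN7 and NCI-N87 libraries were at or near the floor, with 0 to 6 counts in the 24 MKN7 libraries and 0 to 18 counts in the 24 NCI-N87 libraries, and in the fits of these lines F2RL3 was removed by the filter on low counts.

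**Figure D1:**
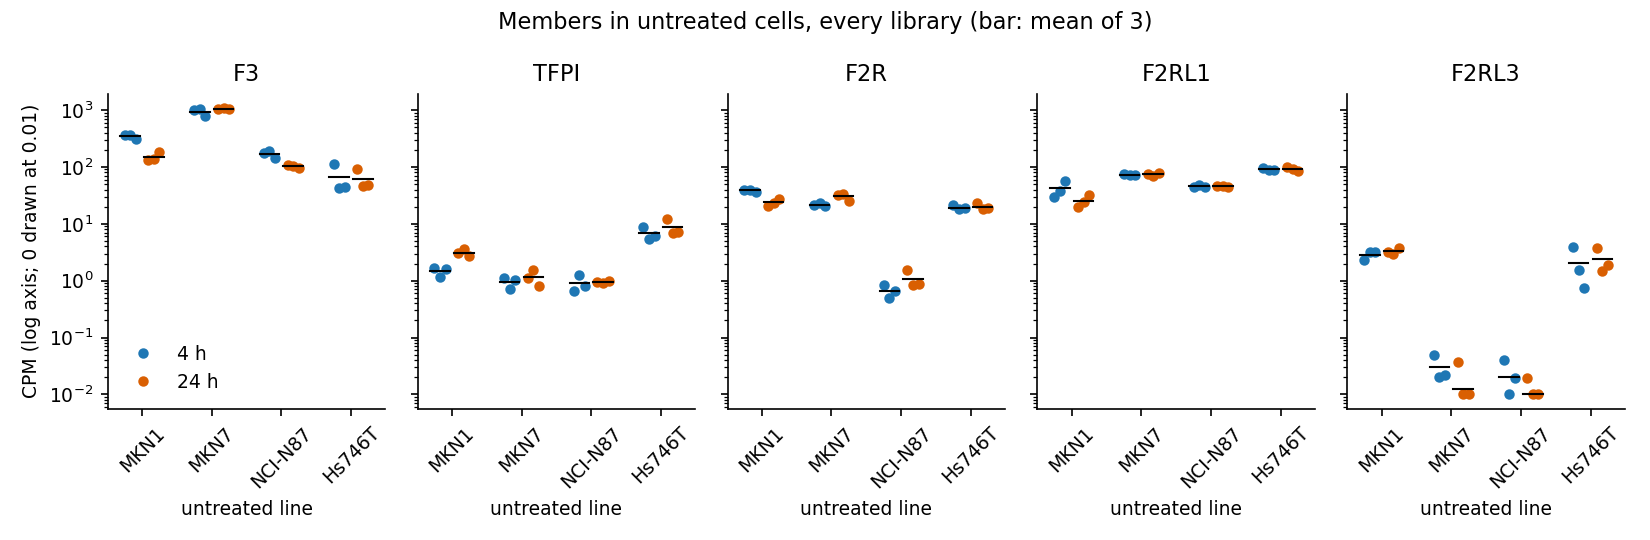
CPM (log axis, values of 0 drawn at 0.01) of the 5 measured members in untreated libraries of each line at 4 h (blue) and 24 h (orange), 1 point per library and a bar at the mean of 3. F3 is highest in MKN7, with a mean of 1060 CPM at 24 h, F2R is near 1 CPM in NCI-N87, TFPI is highest in Hs746T, and F2RL3 is at most 0.0496 CPM in MKN7 and NCI-N87.

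Several members differed between 4 h and 24 h in untreated MKN1 cells. The medium was changed before treatment, so that time in culture and time since fresh medium cannot be told apart. F3 fell from 348 ± 29.9 to 152 ± 26.4 CPM between 4 h and 24 h (SD, n = 3, log2FC -1.36, adjusted p = 6.44e-06). F2R fell with a log2FC of -0.86 (adjusted p = 8.98e-07) and F2RL1 with -0.90 (adjusted p = 0.00242, and adjusted p = 0.0682 without replicate 2), while TFPI rose from 1.48 ± 0.296 to 3.1 ± 0.422 CPM (log2FC 0.89, adjusted p = 0.00023). Of all genes tested in MKN1, 34.1% passed between the times. F3 fell in NCI-N87 as well (log2FC -0.75, adjusted p = 0.0118, 0.267% of genes passed), a call lost without replicate 1 or 2 (adjusted p = 0.139 and 0.11). F2R rose in MKN7 (log2FC 0.43, adjusted p = 0.00315, 16.4% of genes passed), a call lost without replicate 1 (adjusted p = 0.117). Both calls were also lost when only the groups compared were fitted (adjusted p = 0.0921 for F3 and 0.0689 for F2R). None of the 5 members tested in Hs746T passed, where 1.48% of genes did. With the replicate number as a block, TFPI passed there (log2FC 0.37, adjusted p = 0.0262), where 10.2% of genes did. This block joined replicate numbers across both times, while their correlation was examined only within each time.

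In MKN1 cells EGF raised F3 and F2RL1 at both times and F2R at 24 h. At 4 h F3 was at 365, 365 and 313 CPM in untreated cells and at 595, 549 and 465 CPM with EGF (log2FC 0.73, SE 0.21, adjusted p = 0.0264). The groups did not overlap, and each EGF library was above the untreated library of its number. The F3 call at 4 h was lost without replicate 1 (adjusted p = 0.346) or replicate 2 (adjusted p = 0.165), and with library-size scaling alone (adjusted p = 0.0523). F2RL1 rose from 30.1, 38.2 and 57.1 CPM to 69, 83.6 and 110 CPM (log2FC 1.17, SE 0.23, adjusted p = 0.000584), a call lost without replicate 2 (adjusted p = 0.0676). All 3 EGF libraries lay above the highest untreated one. These were 2 of the 5 tested members, against 6.82% of all tested genes. F2R did not pass at 4 h (log2FC 0.01, 95% CI -0.23 to 0.25).

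At 24 h EGF raised 3 members and lowered TFPI. F2R, at 20.9, 23.6 and 27.1 CPM in untreated cells, was at 48.7, 46 and 43.9 CPM with EGF (log2FC 1.15, SE 0.12, adjusted p = 5.91e-09). The EGF effect on F2R differed between the times (log2FC 1.14 larger at 24 h, adjusted p = 5.15e-05, 9.46% of genes passed). F3 rose from 134, 140 and 183 CPM to 291, 234 and 314 CPM (log2FC 1.07, adjusted p = 0.000175). F2RL1 rose from 25.1 ± 6.39 to 56.5 ± 7.78 CPM (log2FC 1.37, adjusted p = 1.86e-05). TFPI fell from 3.01, 3.55 and 2.72 CPM to 1.66, 2.17 and 1.81 CPM (log2FC -0.51, adjusted p = 0.0211). This call was lost without replicate 1 (adjusted p = 0.168) or replicate 3 (adjusted p = 0.0798), and when only the groups compared were fitted (adjusted p = 0.083). At this time 35.8% of all tested genes passed. F2RL3 did not pass (log2FC 0.14, 95% CI -0.15 to 0.44).

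Cetuximab alone lowered F3 and F2RL1 in MKN1 at 4 h. F3 was at 166, 200 and 119 CPM, below all untreated libraries (log2FC -1.17, SE 0.21, adjusted p = 0.00106), a call lost without replicate 1 (adjusted p = 0.117). F2RL1 was at 15.7, 21.3 and 25.9 CPM (log2FC -1.07, SE 0.23, adjusted p = 0.00748). This call was lost without replicate 2 (adjusted p = 0.191) and when only the groups compared were fitted (adjusted p = 0.138). These were 2 of 5 members against 1.43% of all genes. At 24 h F3 was still lower, at 76.5, 91.8 and 78.3 CPM (log2FC -0.98, adjusted p = 0.00293). F2R was lower by a smaller amount (19.5 ± 1.39 against 23.9 ± 3.09 CPM, log2FC -0.37, adjusted p = 0.0406), which was lost without replicate 2 (adjusted p = 0.189) or 3 (adjusted p = 0.298). It was also lost when only the groups compared were fitted (adjusted p = 0.099), with library-size scaling alone (adjusted p = 0.0683) and without a filter (adjusted p = 0.0798). F2RL1 did not pass at 24 h (log2FC -0.17, 95% CI -0.64 to 0.29), while 10.8% of all genes passed.

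With EGF + cetuximab, the mean levels of F3 and F2RL1 lay between those of EGF alone and of untreated cells. F2RL1 was at 54.8, 57.2 and 85.8 CPM at 4 h and at 32.1, 39.1 and 41.4 CPM at 24 h. Against untreated cells at 24 h, F3 (log2FC 0.60, adjusted p = 0.042), F2R (log2FC 0.90, adjusted p = 3.06e-06) and F2RL1 (log2FC 0.69, adjusted p = 0.0299) passed, among 18.6% of all genes. The F3 and F2RL1 calls were lost without replicate 1 (adjusted p = 0.39 and 0.15) or 2 (adjusted p = 0.228 and 0.264), and with library-size scaling alone (adjusted p = 0.095 and 0.0838). TFPI narrowly did not pass at 24 h (log2FC -0.48, adjusted p = 0.0503). It did by DESeq2 (adjusted p = 0.0417), with library-size scaling alone (adjusted p = 0.0158) and with the stricter filter of 10 or more counts in all libraries (adjusted p = 0.0388). Against EGF alone no member passed at either time (0 by DESeq2 as well, 4 of 10 tests at an unadjusted p below 0.05), where 0.701% of genes passed at 4 h and 0.646% at 24 h. The same-numbered libraries of MKN1 at 4 h deviated together, and with the replicate number as a block F2RL1 was lower with the antibody at 4 h than with EGF alone (log2FC -0.47, adjusted p = 0.00119). In this block F3 and F2RL1 were also higher than in untreated cells at 4 h (log2FC 0.61, adjusted p = 0.00489, and 0.73, adjusted p = 2.38e-06), where neither passed without it (adjusted p = 0.295 and 0.231). With the block, 3.93% of all genes passed against untreated cells at 4 h and 3.99% against EGF alone. The 3 F2RL1 libraries were at 79.4%, 68.4% and 77.7% of the EGF library of their number at 4 h, and at 67.4%, 65.2% and 66.7% at 24 h.

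**Figure D2:**
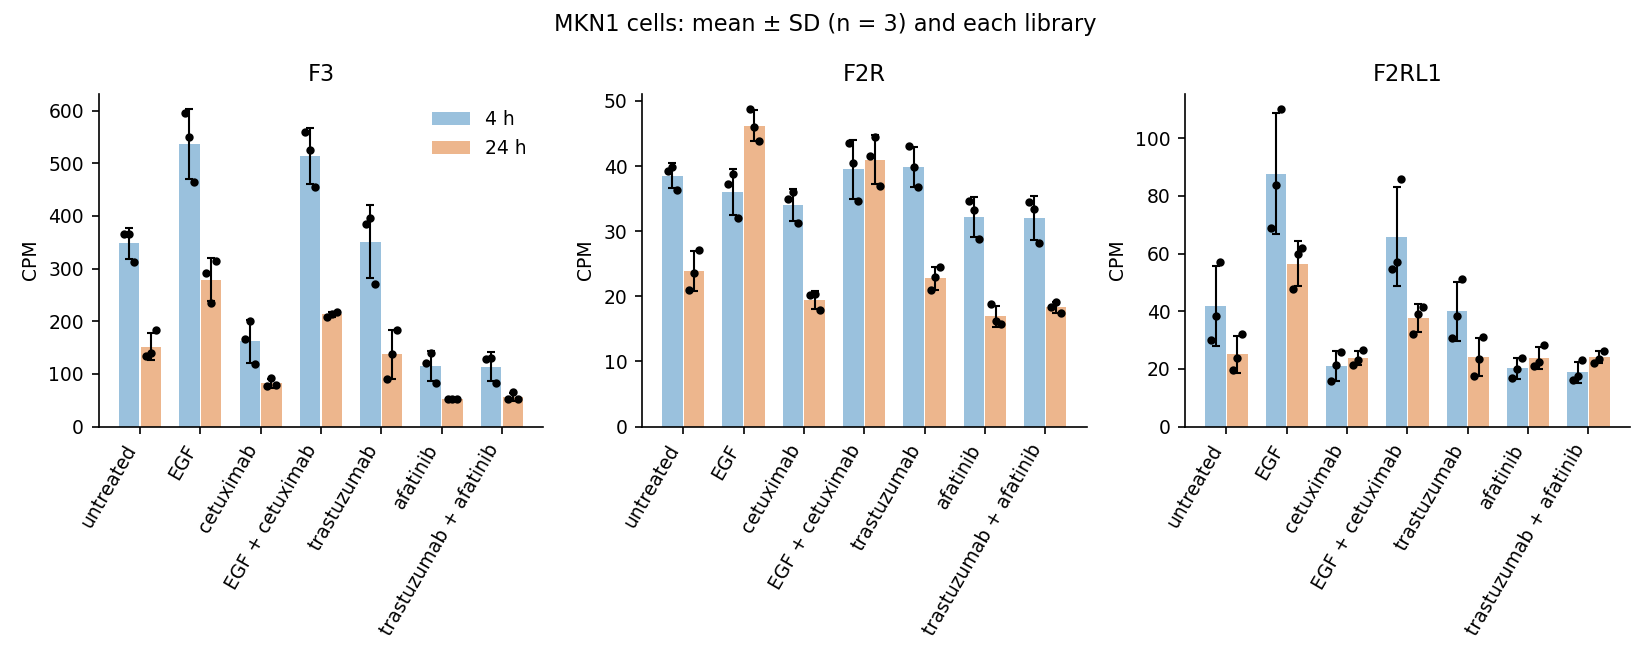
CPM of F3, F2R and F2RL1 in MKN1 cells under each treatment at 4 h (blue) and 24 h (orange), with bars for the mean, error bars for the SD (n = 3) and points for the libraries. EGF raises F3 to 536 CPM at 4 h and F2R to 46.2 CPM at 24 h, cetuximab and afatinib bring F3 below the untreated libraries at both times, and trastuzumab alone is at 351 CPM at 4 h beside 348 CPM in untreated cells.

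Afatinib lowered F3 in MKN1, MKN7 and NCI-N87, and in Hs746T with the replicate number as a block. In NCI-N87 F3 was at 179, 190 and 143 CPM in untreated cells and at 29.2, 35.6 and 25.6 CPM with afatinib at 4 h, which is 17.7% of the untreated mean (log2FC -2.57, SE 0.13, adjusted p = 1.65e-11). At 24 h it was at 107, 104 and 96.5 CPM without and at 12.5, 9.47 and 10.4 CPM with afatinib, 10.5% of the untreated mean (log2FC -3.51, SE 0.14, adjusted p = 1.63e-14). The fall was larger at 24 h than at 4 h (log2FC -0.94, adjusted p = 0.00026, 35.8% of genes passed). In MKN1 F3 was at 121, 140 and 82.5 CPM at 4 h (log2FC -1.70, adjusted p = 2.37e-06) and at 52.3, 53.2 and 51.8 CPM at 24 h (log2FC -1.62, adjusted p = 1.56e-06). In MKN7, the line with the most F3, it was at 751, 749 and 573 CPM at 4 h against 1013, 1027 and 770 CPM (log2FC -0.52, adjusted p = 0.00512) and at 733, 691 and 728 CPM at 24 h (log2FC -0.68, adjusted p = 0.000158). In each of these lines all afatinib libraries were below all untreated ones. The MKN7 call at 4 h was lost without replicate 1 (adjusted p = 0.0689) or 2 (adjusted p = 0.0897).

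F2RL1 was lower with afatinib at 4 h in MKN1 and at 24 h in MKN7. In MKN1 it was at 16.7, 20 and 23.9 CPM at 4 h (log2FC -1.14, SE 0.23, adjusted p = 0.00209), a call lost without replicate 2 (adjusted p = 0.108), and did not pass at 24 h (log2FC -0.17, 95% CI -0.63 to 0.30). In MKN7 it did not pass at 4 h (log2FC -0.10, 95% CI -0.24 to 0.05) and fell from 73.8, 70.4 and 79.3 CPM to 47.9, 49.1 and 54.2 CPM at 24 h (log2FC -0.68, SE 0.07, adjusted p = 9.45e-08). The MKN7 effects differed between the times (log2FC -0.59, adjusted p = 0.000248, 18% of genes passed), while in MKN1 the difference between the times did not pass (log2FC 0.98, adjusted p = 0.103, 2.77% of genes passed). With the replicate block, the difference between the times also passed for F3 in MKN7 (log2FC -0.16, adjusted p = 0.0321, 36.7% of genes passed) and F2RL1 in NCI-N87 (log2FC -0.33, adjusted p = 0.00648, 50.9%). In NCI-N87 F2RL1 was lower at 24 h (log2FC -0.43, adjusted p = 0.000462), but with library-size scaling alone the log2FC was -0.18 and did not pass (adjusted p = 0.0622). F3 and F2RL1 are in a list of motility genes that the study drew from MKN1 cells treated with afatinib for 4 h, so that their direction there is not independent evidence.

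F2R fell with afatinib at 24 h in MKN1, from 23.9 ± 3.09 to 16.9 ± 1.59 CPM (log2FC -0.58, adjusted p = 0.00053), and in MKN7, from 30.4 ± 4.94 to 20 ± 0.73 CPM (log2FC -0.71, adjusted p = 1.58e-06). At 4 h in MKN7 its 3 afatinib libraries were all above the untreated ones (25.4 ± 1.52 against 21.5 ± 1.32 CPM, log2FC 0.16, adjusted p = 0.233), which passed with the block (adjusted p = 0.0347), and the 2 effects differed (log2FC -0.87, adjusted p = 7.34e-05). At 4 h in MKN1 F2R also passed with the block (log2FC -0.35, adjusted p = 0.00313, and adjusted p = 0.097 without it). With the block, 38.4% of all genes passed in MKN7 and 13.2% in MKN1 at 4 h. In NCI-N87 F2R, at 0.3 to 1.55 CPM in all libraries, did not pass at 24 h (log2FC -0.52, 95% CI -1.38 to 0.34). TFPI passed in NCI-N87 at 24 h only narrowly (log2FC -0.55, adjusted p = 0.0485, and adjusted p = 0.0508 with the block), and this call was lost under each of the other alternatives as well. The members that passed numbered 2 of 5 at 4 h and 2 of 5 at 24 h in MKN1, where 3.68% and 25.6% of all genes did, 1 of 4 and 3 of 4 in MKN7 (22.2% and 51.6%), and 1 of 4 and 3 of 4 in NCI-N87 (18.2% and 62.5%). The 24 h counts in MKN7 and NCI-N87 thus stand against backgrounds of 51.6% or more.

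**Figure D3:**
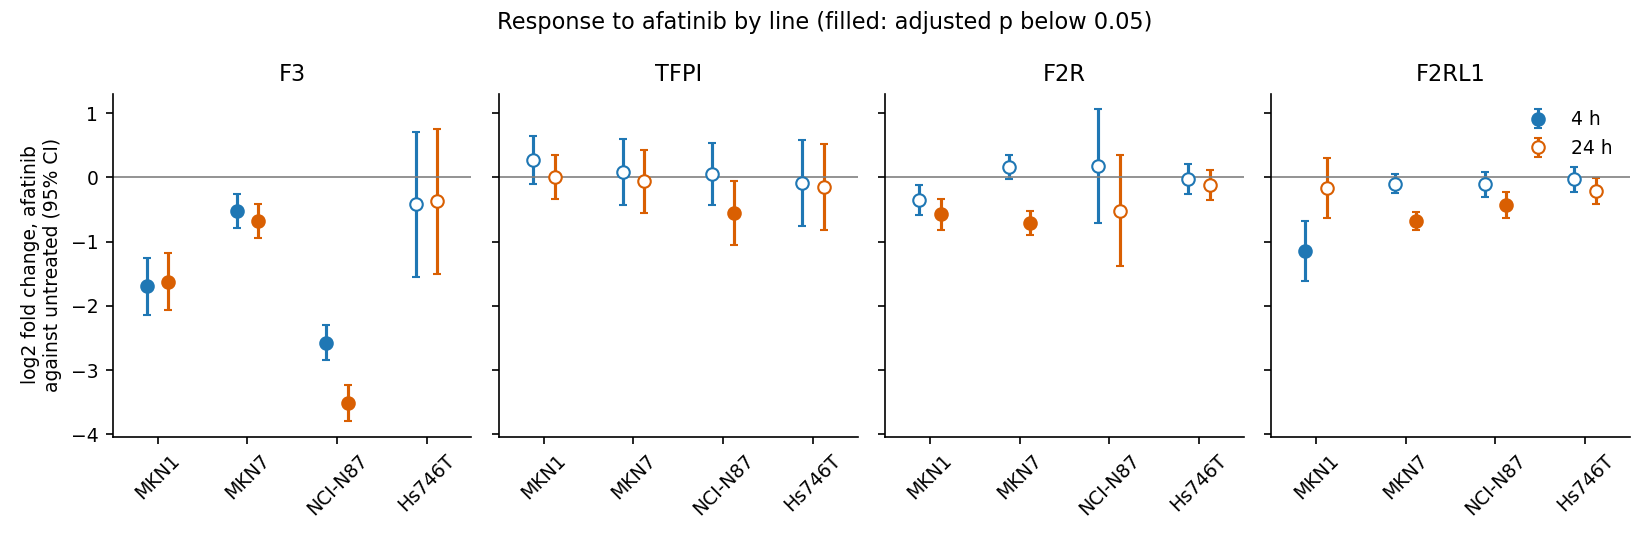
Log2 fold change of F3, TFPI, F2R and F2RL1 with afatinib against untreated cells by line at 4 h (blue) and 24 h (orange), with 95% confidence intervals from edgeR and filled points for an adjusted p below 0.05. F3 runs from -3.51 in NCI-N87 at 24 h to -0.37 in Hs746T at 24 h, whose intervals are wide, and F2RL1 is lowest in MKN1 at 4 h.

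In Hs746T no member passed with afatinib (0 of 10 tests by edgeR and 0 by DESeq2), and without the replicate number as a block 0% of genes did at either time (1371 genes at 4 h and 330 at 24 h had an unadjusted p below 0.05). F3 was at 112, 42.1 and 44.3 CPM in untreated cells and at 78.4, 32.3 and 33.6 CPM with afatinib at 4 h (log2FC -0.42, 95% CI -1.55 to 0.71). The groups overlapped, since replicate 1 was above the others in both. Within the same replicate number, F3 with afatinib was at 70.2%, 76.9% and 75.8% of the untreated level at 4 h and at 81.2%, 86.4% and 66.3% at 24 h. Same-numbered libraries of this line deviated together, and with the replicate number as a block F3 passed at 4 h (log2FC -0.39, adjusted p = 0.00186) and at 24 h (log2FC -0.38, adjusted p = 0.00542), where 18.6% and 0.712% of genes passed. F2RL1 passed at 24 h with the block (log2FC -0.21, adjusted p = 0.00802). Without replicate 1, the fit without the block gave a log2FC of F3 of -0.34 (adjusted p = 0.528) at 4 h and -0.40 (adjusted p = 0.356) at 24 h. EGF, cetuximab and EGF + cetuximab moved no member past the test in Hs746T (0 of 40 tests, 0 at an unadjusted p below 0.05, 0 by DESeq2). F3 with EGF was at 114, 41.4 and 40.9 CPM at 4 h.

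**Figure D4:**
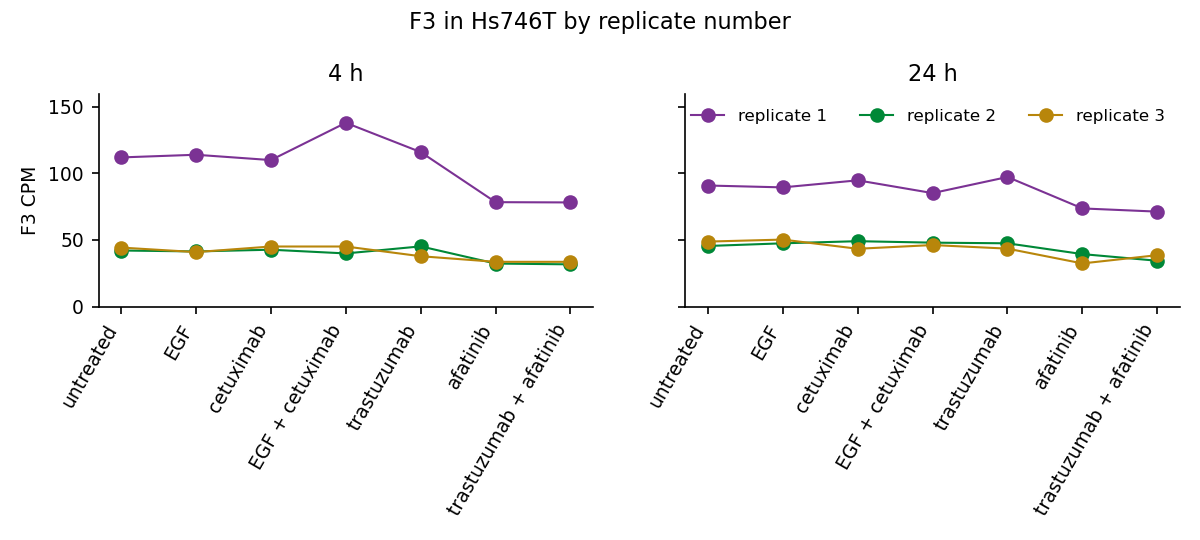
F3 CPM in Hs746T under each treatment at 4 h and 24 h, with lines joining the libraries of 1 replicate number. Replicate 1 runs at 71.3 to 138 CPM and replicates 2 and 3 at 31.7 to 50.3 CPM, and each line is lower with afatinib than in untreated cells.

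The differences between the lines were tested directly. At 4 h the F3 effect of afatinib was stronger in NCI-N87 than in MKN7 (log2FC 2.09 for MKN7 minus NCI-N87, adjusted p = 0.00588) and Hs746T (log2FC -2.13 for NCI-N87 minus Hs746T, adjusted p = 0.00095). Both calls were lost without replicate 2 (adjusted p = 0.283 and 0.0685), and the first without replicate 3 (adjusted p = 0.156). At 24 h it was stronger in NCI-N87 than in MKN1 (log2FC 1.87, adjusted p = 0.000818), MKN7 (log2FC 2.80, adjusted p = 4.47e-06) and Hs746T (log2FC -3.10, adjusted p = 2.82e-07). At 4 h NCI-N87 and MKN1 did not pass (MKN1 minus NCI-N87 log2FC 0.89, adjusted p = 0.466), nor did MKN1 and MKN7 (log2FC -1.20, adjusted p = 0.204) or MKN1 and Hs746T (log2FC -1.24, adjusted p = 0.271), and all 3 did with the block (adjusted p = 1.93e-05, 6.96e-08 and 1.12e-07). MKN1 and MKN7 also passed at 4 h when only the groups compared were fitted (adjusted p = 0.0277). At 24 h MKN1 did not pass against MKN7 (log2FC -0.93, adjusted p = 0.192) or Hs746T (log2FC -1.23, adjusted p = 0.0968), but did without replicate 1 (adjusted p = 0.0472 and 0.0172). Against MKN7 it also passed at 24 h when only the groups compared were fitted (adjusted p = 0.0044). MKN7 and Hs746T did not pass for F3 at 4 h (log2FC -0.03) or 24 h (log2FC -0.29, adjusted p = 0.7). The 4 h effect on F2RL1 was stronger in MKN1 than in MKN7, NCI-N87 and Hs746T (log2FC -1.07, -1.01 and -1.06, adjusted p = 0.00275, 0.0041 and 0.00654), and without replicate 2 these 3 calls were lost (adjusted p = 0.342, 0.287 and 0.625). Those against NCI-N87 and Hs746T were also lost when only the groups compared were fitted (adjusted p = 0.0586 and 0.1). With the block, F2R also differed between MKN1 and MKN7 at 4 h (log2FC -0.54, adjusted p = 0.00616) and between MKN7 and Hs746T at 24 h (log2FC -0.58, adjusted p = 0.000751), and F2RL1 at 24 h between MKN7 and NCI-N87 (log2FC -0.27, adjusted p = 0.0336) and Hs746T (log2FC -0.47, adjusted p = 0.000361). The F2R difference between MKN7 and Hs746T at 24 h also passed by DESeq2 (adjusted p = 0.0401). In all, 9 of 60 tests of members between lines passed, and 22 with the block, while of all genes 1.11%, 1.62%, 0.233%, 0.84%, 4.81% and 6.53% passed at 4 h and 7.57%, 29.5%, 3.85%, 22.7%, 19.4% and 37.1% at 24 h, in the order of pairs given for the untreated lines. With the block these shares were 8.52%, 8.68%, 11.9%, 6.49%, 20.6% and 24.2% at 4 h and 24.3%, 44.6%, 19.8%, 38.3%, 35.9% and 48.9% at 24 h.

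Trastuzumab alone moved no member past the test in any line (0 of 36 tests, 0 by DESeq2 and 0 with the block). Without the block 0% of all genes passed in every line at both times, so that the 0 is not particular to the members. With the block at most 0.335% of all genes passed, in MKN7 at 24 h. Of the 36 tests, 2 had an unadjusted p below 0.05, both F3 in NCI-N87. There F3 was at 214, 214 and 233 CPM at 4 h against 179, 190 and 143 CPM (log2FC 0.42, unadjusted p = 0.0023, adjusted p = 1) and at 85.8, 82 and 79.5 CPM at 24 h against 107, 104 and 96.5 CPM (log2FC -0.34, unadjusted p = 0.0102, adjusted p = 1). The groups did not overlap at either time. Trastuzumab + afatinib was close to afatinib alone, for example with 12.5, 9.15 and 10.8 CPM of F3 in NCI-N87 at 24 h, and no member passed between the 2 (0 of 36 tests, 0 at an unadjusted p below 0.05, 0 by DESeq2), where again 0% of all genes passed. The log2FC between them lay between -0.23 and 0.18. Against untreated cells, 11 of 36 tests passed for the combination, and 17 with the block. The share of all genes that passed was 3.95% and 26.8% in MKN1 (4 h and 24 h), 23.4% and 51.9% in MKN7, 17.3% and 64.7% in NCI-N87 and 0% in Hs746T. With the block it was 13.8% and 44% in MKN1, 40.3% and 64% in MKN7, 32.5% and 73.6% in NCI-N87 and 1.67% and 0.557% in Hs746T. The calls gained with the block were F2R at 4 h in MKN1 (log2FC -0.37, adjusted p = 0.00206) and MKN7 (log2FC 0.21, adjusted p = 0.00632), F2R at 24 h in NCI-N87 (log2FC -0.72, adjusted p = 0.0386), F3 in Hs746T at 4 h (log2FC -0.41, adjusted p = 0.0105) and 24 h (log2FC -0.38, adjusted p = 0.00451), and F2RL1 in Hs746T at 24 h (log2FC -0.20, adjusted p = 0.0113). Afatinib and cetuximab did not differ past the test in MKN1 or Hs746T for any member (0 of 20 tests, 2 at an unadjusted p below 0.05, 0 by DESeq2), and at most 0.0757% of all genes did, in MKN1 at 24 h. With the block, F3 in Hs746T was lower with afatinib than with cetuximab at 4 h (log2FC -0.43, adjusted p = 0.00742) and 24 h (log2FC -0.38, adjusted p = 0.00466), and F2RL1 at 24 h (log2FC -0.17, adjusted p = 0.0423). In MKN1 at 24 h F3 was at 52.3, 53.2 and 51.8 CPM with afatinib and at 76.5, 91.8 and 78.3 CPM with cetuximab, without overlap (log2FC -0.65, adjusted p = 0.431).

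Other genes of coagulation, receptor cleavage and receptor signalling were counted list by list. Of the 5 tested genes of plasminogen activation in MKN1, 4 rose with EGF at 4 h and 5 at 24 h, where 6.82% and 35.8% of all genes passed. The leading one was SERPINB2, an inhibitor of plasminogen activators (log2FC 3.26 and 3.83, adjusted p = 9.56e-12 and 8.36e-11), and PLAUR, the urokinase receptor, rose as well (log2FC 1.24 at 4 h, adjusted p = 0.000831). With afatinib, 2 of 5 fell in MKN1, 3 of 5 in MKN7 and 1 of 5 in NCI-N87 at 4 h, where 3.68%, 22.2% and 18.2% of all genes passed, and PLAUR was regulated in MKN7 (log2FC -1.12, adjusted p = 0.00595) and NCI-N87 (log2FC -1.05, adjusted p = 7.16e-06). Between EGF + cetuximab and EGF alone 2 of the 5 were lower at each time, SERPINB2 most (log2FC -2.43, adjusted p = 1.7e-08 at 4 h), where 0.701% and 0.646% of all genes passed.

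Of the ERK target genes, which respond to signalling below the EGF receptor, all 5 tested, among them DUSP6, SPRY4 and EGR1, fell with afatinib at both times in MKN1, MKN7 and NCI-N87. Of all genes, 3.68%, 22.2% and 18.2% passed at 4 h and 25.6%, 51.6% and 62.5% at 24 h in these lines. In Hs746T 0 of 6 passed at either time, and 0% of all genes did, so that this 0 is not particular to the list. In MKN1 DUSP6 rose with EGF at 4 h (log2FC 1.84, adjusted p = 0.000993). Of 16 coagulation factors, 10 were tested in MKN1 and none passed at 4 h with EGF, cetuximab, EGF + cetuximab or afatinib. Of all genes, 6.82%, 1.43%, 0.717% and 3.68% passed there. At 24 h F5, the cofactor factor V, fell with EGF (log2FC -1.19, adjusted p = 0.000185) and rose with afatinib (log2FC 1.5, adjusted p = 7.91e-06), opposite in sign to F3. Among 9 anticoagulant proteins and receptors, SERPIND1 was at 0 in every library. THBD, thrombomodulin, rose with EGF in MKN1 at 4 h (log2FC 1.02, adjusted p = 3.71e-07), where 6.82% of genes passed. It fell with afatinib in MKN7 at 4 h (log2FC -2.07, adjusted p = 8.72e-07), where 22.2% did. Among 17 proteases that can cleave the receptors, PRSS1, PRSS2, TMPRSS11D and MMP1 were at 0 in every library. PRSS3, mesotrypsin, rose with EGF in MKN1 (log2FC 1.17 at 4 h, adjusted p = 2.27e-06), and TMPRSS2 fell at 24 h (log2FC -2.14, adjusted p = 8.78e-06). Of all genes, 6.82% passed at 4 h and 35.8% at 24 h. The genes named are examples, and others of both lists changed in some comparisons. Of the 16 G proteins, arrestins and effectors, all tested in MKN1, 1 fell with EGF at 4 h, and at 24 h 4 rose and 2 fell, none with an absolute log2FC above 1, a count near the 35.8% of all genes that passed then. Neither of the membrane Kunitz inhibitors SPINT1 and SPINT2 passed with EGF.

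The genes whose pattern was most like a member's were ranked by Pearson's r of log2 CPM over all 132 libraries, centred by line and time point, among 10859 protein-coding genes. The points share their libraries and are given as a description. For F3 these were ANKRD1 (0.94), ENC1 (0.94) and PMEPA1 (0.93), for F2RL1 SOX13 (0.88), LAMA3 (0.87) and KIAA1551 (0.86), for F2R VCAN (0.76), COMMD10 (0.72) and WDR1 (0.72), and for TFPI CASC10 (0.71), CSF2RA (0.71) and GUSB (0.67).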

How the data were processed

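RNA of 132 libraries of 4 cell lines was measured. Per the labels and the methods, the authors made directional mRNA libraries, read them from both ends, and deposited unnormalized read counts for each Ensembl gene. The submitters' processing notes name Trim Galore, STAR and hg38, and the counting tool is not given in the sources used here. Gene symbols came from GENCODE 29 (GRCh38), in which 8404 of the 65217 identifiers (0.0422% of the counts) were not found. Levels are CPM of the library total. Counts were tested in R 4.3.3 with edgeR 4.0.16 (TMM, filterByExpr with a minimum count of 10 and total of 15, glmQLFit and glmQLFTest), with all libraries of a line in 1 fit and 1 mean per treatment and time, and with separate fits for untreated lines (24 libraries) and for the afatinib effect between lines (48 libraries). P-values were Benjamini-Hochberg adjusted over all tested genes (18483 to 21913 per fit). A gene passed at an adjusted p below 0.05 and was regulated if the absolute log2FC was also above 1. Fits were tested on simulated data.

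Alternatives were a fit of the compared groups alone, DESeq2 1.42.0, library-size scaling, no filter on low counts, a stricter filter (10 or more counts in all libraries), a block for the replicate number, and fits without 1 replicate at a time. Same-numbered libraries correlated above 0.1 in every pair of treatments in all lines and times except MKN1 at 24 h (lowest -0.10), so blocked values of comparisons with these libraries are in the closing section and others stand beside the results they change. No 2 libraries were identical. Named genes were all 7 members, up to 3 regulated genes with the largest change per list, and the 3 genes most like each member. Members and lists were chosen with earlier results of these data known. 1 gene that this rule names is not reported here. Promoter windows are from RefSeq. Figures were drawn with matplotlib.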

Additional observations from a re-analysis of the deposited data

Results flagged for a closer look

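The results below stand out because the effect of a treatment differed between time points or between lines by a test of the difference itself (edgeR, adjusted p). Values are differences of log2FC. Between 24 h and 4 h, the EGF effect on F2R in MKN1 differed by 1.14 (adjusted p = 5.15e-05), and the afatinib effect by -0.87 for F2R in MKN7 (adjusted p = 7.34e-05), -0.59 for F2RL1 in MKN7 (adjusted p = 0.000248) and -0.94 for F3 in NCI-N87 (adjusted p = 0.00026). These were 4 of 28 such tests, and 8 passed with the replicate block. Of all genes, 9.46% passed for EGF in MKN1 and 2.77%, 18%, 35.8% and 0% for afatinib in MKN1, MKN7, NCI-N87 and Hs746T. With the block the shares were 26.3% for EGF in MKN1 and 15.7%, 36.7%, 50.9% and 0.359% for afatinib.

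Between lines, the 4 h afatinib effect on F2RL1 in MKN1 differed from that in MKN7 by -1.07 (adjusted p = 0.00275), in NCI-N87 by -1.01 (adjusted p = 0.0041) and in Hs746T by -1.06 (adjusted p = 0.00654). For F3 at 4 h the difference was 2.09 for MKN7 minus NCI-N87 (adjusted p = 0.00588) and -2.13 for NCI-N87 minus Hs746T (adjusted p = 0.00095). At 24 h it was 1.87 for MKN1 minus NCI-N87 (adjusted p = 0.000818), 2.80 for MKN7 minus NCI-N87 (adjusted p = 4.47e-06) and -3.10 for NCI-N87 minus Hs746T (adjusted p = 2.82e-07). For F2RL3 at 24 h the fitted difference was 3.90 for NCI-N87 minus Hs746T (adjusted p = 0.037), but it is not read as an effect, which leaves 8 of the 9 differences between lines. F2RL3 did not pass the filter on low counts in NCI-N87 alone and entered this fit through lines where it is higher. The value rests on 0 to 1 counts per library in untreated NCI-N87 and 5 to 7 with afatinib, its size depends on how such counts are fitted, and the call was lost without replicate 2 (adjusted p = 0.15) or 3 (adjusted p = 0.169).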

How the results depend on the processing

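Of 114 calls on members, none changed direction under any of the 9 alternatives. The call was lost for 8 when only the groups compared were fitted, 1 by DESeq2, 10 with library-size scaling alone, 3 without a filter, 2 with at least 10 counts in every library (9 not tested), 1 with the replicate block, and 13, 23 and 8 without replicate 1, 2 and 3. The number of members passing moved by more than 1.5 times as follows. For cetuximab in MKN1 it was 4, 2 with only the groups compared, and 2 to 3 when leaving out 1 replicate. For afatinib in NCI-N87 it was 4, and 2 with library-size scaling alone. For the afatinib effect between lines it was 9, and 3 to 12 when leaving out 1 replicate. With the replicate block it was 3 for EGF + cetuximab against EGF in MKN1 (0 without), 3 for afatinib in Hs746T (0), 17 for trastuzumab + afatinib against untreated cells (11), 4 for afatinib against cetuximab (0), 8 for effects between times (4) and 22 for effects between lines (9). Of all genes, 3.99% at 4 h and 7.22% at 24 h passed with the block for EGF + cetuximab against EGF in MKN1. For afatinib against cetuximab the blocked shares were 0% and 3.52% in MKN1 and 0.0375% and 0.498% in Hs746T. The blocked shares for the other counts are given above. In MKN1 at 24 h the replicate numbers do not pair the libraries by the rule used, where the lowest of 63 correlations was -0.0956 and the mean 0.277. There the block gave F2RL1 (log2FC -0.67, adjusted p = 9.33e-06) and F3 (log2FC -0.46, adjusted p = 0.0312) as lower with EGF + cetuximab than with EGF, F3 as lower with afatinib than with cetuximab (log2FC -0.64, adjusted p = 0.00734), and TFPI as lower with EGF + cetuximab than in untreated cells (log2FC -0.49, adjusted p = 0.009). In comparisons that include these libraries, it gave a difference between 24 h and 4 h for the afatinib effect on F2RL1 (log2FC 0.97, adjusted p = 1.06e-05) and the EGF effect on TFPI (log2FC -0.59, adjusted p = 0.0473). It also gave 24 h afatinib effects in MKN1 that differed from MKN7 for F3 (adjusted p = 1.89e-06) and F2RL1 (adjusted p = 0.000175), from NCI-N87 for F2RL1 (adjusted p = 0.0285) and from Hs746T for F3 (adjusted p = 1.76e-07) and F2R (adjusted p = 0.0188). With library-size scaling the median log2FC over all tested genes moved by 0.26 for afatinib in NCI-N87 at 24 h and by -0.20 for EGF in MKN1 at 24 h. The causes of these changes were not tested. F2RL3 was at 0 to 6 counts in MKN7 and 0 to 18 in NCI-N87.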
